A study of Mus musculus with 12 samples.

Results

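Heat shock proteins and chaperones were examined in 3 populations of mouse fetal liver blood cells. The set was defined by gene symbol alone, although earlier results of these data were known when it was chosen. It takes in the heat shock protein families, the J proteins (Dnaja, Dnajb and Dnajc genes), the subunits of the cytosolic chaperonin CCT and the Bag cochaperones. It holds 87 of the 19937 genes that have a probe set of their own on the array. *Hspa1b* and *Hsp90ab1* match the same symbols but had no such probe set and were not analysed here. MEG were megakaryocytes grown from KIT-positive progenitors of E14.5 fetal liver in culture, where they were expanded for 7 days and differentiated for 5 more, and then enriched on CD41. ERY were erythroblasts taken from E14.5 fetal liver with beads on Ter119. HSPC were lineage-negative cells of E14.5 fetal liver sorted for Sca1, whose arrays carry the label HSC. The mice had no stated mutation, and their strain is not given in the sources used here. Each population was profiled on 4 arrays, described as biological replicates. Only MEG were cultured, so that culture and lineage cannot be told apart in any comparison that involves MEG.

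Molecular chaperones bind unfolded proteins and let them fold, cross membranes or reach the degradation machinery. Hsp70 proteins do this in cycles of ATP hydrolysis, which J proteins start by delivering a substrate and which nucleotide exchange factors such as the Bag proteins end. Hsp90 takes over partly folded clients, small heat shock proteins hold unfolded chains, and the chaperonins CCT in the cytosol and Hspd1 with Hspe1 in mitochondria enclose a chain in a barrel. The endoplasmic reticulum (ER) and the mitochondrion have their own Hsp70 proteins, BiP (*Hspa5*) and mortalin (*Hspa9*). Erythroblasts fold globin in great excess over all else, whereas megakaryocytes make granule and membrane proteins that pass through the ER.

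Promoter sequences are shown for 4 members because heat shock and ER stress genes are classically told apart by the elements before their start sites. Of the 87 members, 72 had promoter windows in RefSeq (build GRCm38.p6), 92 windows in all, each from 250 bases before to 50 bases after a start site. The ER stress response element, searched on both strands as CCAAT and CCACG with 9 bases of any kind between them, was found in 3 of the 92 windows (3.26%) and in 0.119% of all 32851 promoter windows. These windows belong to *Hspa5*, *Hsp90b1* and *Dnajc3*, all 3 of which act in the ER. The letters CCAAT within it are also the CCAAT motif, which was found in 35.9% of the members' windows and in 37.4% of all windows. The 250 bases before the start site follow, 5′ to 3′ on the strand of the gene, with every match in capitals.
*Hspa5*, chr2:34771840-34772089, plus strand: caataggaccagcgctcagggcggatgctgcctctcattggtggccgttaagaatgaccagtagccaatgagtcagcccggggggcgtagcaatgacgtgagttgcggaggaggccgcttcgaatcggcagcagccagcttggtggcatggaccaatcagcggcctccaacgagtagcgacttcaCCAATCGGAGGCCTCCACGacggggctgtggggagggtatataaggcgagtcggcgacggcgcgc
*Hsp90b1*, chr10:86705445-86705694, minus strand: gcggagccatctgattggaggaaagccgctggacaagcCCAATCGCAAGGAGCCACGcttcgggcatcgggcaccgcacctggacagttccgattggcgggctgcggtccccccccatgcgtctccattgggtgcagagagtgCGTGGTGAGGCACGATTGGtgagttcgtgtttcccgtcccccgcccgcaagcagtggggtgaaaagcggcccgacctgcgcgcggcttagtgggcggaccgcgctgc
*Dnajc3*, chr14:118937682-118937931, plus strand: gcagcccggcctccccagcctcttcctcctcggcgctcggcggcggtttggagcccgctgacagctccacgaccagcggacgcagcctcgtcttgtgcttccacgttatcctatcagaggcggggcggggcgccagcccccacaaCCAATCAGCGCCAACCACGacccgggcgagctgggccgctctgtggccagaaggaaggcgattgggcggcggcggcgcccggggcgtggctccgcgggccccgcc
The promoter of *Hsp90b1* holds a pair of matches, 1 on each strand, and those of *Hspa5* and *Dnajc3* hold 1 match each. The heat shock element, searched on both strands as GAA, TTC and GAA with 2 bases of any kind between each, was found in 6 of the 92 windows (6.52%) and in 0.603% of all windows. Its genes are *Dnajb6*, *Hsph1*, *Hspd1* and *Hspe1*. In *Dnajb6* and in *Hsph1* the same letters were matched at 2 distances from a start site, so the 6 windows need not hold 6 separate elements. The matches of *Hsph1* began 16 and 37 bases after the start site. *Hspd1* and *Hspe1* lie head to head and their spans overlap by 96 bases, so that the same element stands before both; it is shown from the side of *Hspe1*, where matches on both strands overlap.
*Hspe1*, chr1:55087898-55088147, plus strand: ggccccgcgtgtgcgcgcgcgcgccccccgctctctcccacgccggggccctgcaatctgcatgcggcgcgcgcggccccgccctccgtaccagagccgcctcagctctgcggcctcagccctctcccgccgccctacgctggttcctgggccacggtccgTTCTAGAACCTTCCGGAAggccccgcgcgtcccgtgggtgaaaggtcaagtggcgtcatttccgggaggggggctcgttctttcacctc
The GATA motif AGATAA was found in 4.35% of the members' windows and in 11.2% of all windows, and the motif CCACACCC, bound by erythroid Krüppel-like factors, in 3.26% and 3.56%. A match is a stretch of letters and not a measured binding site.

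The deposited values are log2 levels, so that a step of 1 stands for a 2-fold change. A gene was called higher or lower when the means of the populations compared lay more than 2-fold apart at an FDR below 5%. The limma model used all 12 arrays, and p values were adjusted by the Benjamini-Hochberg method across the 19937 genes. A level of 5.95, the 95th percentile of 1015 olfactory receptor genes, served as the background limit, and 77 of the 87 members exceeded it in at least 1 population. The 10 members that did not were *Cct6b*, *Cct8l1*, *Dnajb13*, *Dnajb7*, *Dnajc5b*, *Dnajc5g*, *Hspa12a*, *Hspa1l*, *Hspb3* and *Hspb7*, and limma called none of them, nor did any reach an unadjusted p below 0.05 (0 of 10 in each comparison). All 7 MEG markers measured were higher in MEG than in HSPC and in ERY, and all 7 ERY markers were higher in ERY than in HSPC and than in MEG. Markers of other cell types also differed: the median level of 14 hepatocyte markers was between 5.34 and 5.69 in the MEG arrays, between 10.43 and 11.13 in the ERY arrays and between 7.84 and 9.99 in the HSPC arrays. The median of 12 macrophage markers was between 5.81 and 7.50 in MEG, 8.16 and 9.18 in ERY, and 6.29 and 6.77 in HSPC. That of 9 neutrophil and monocyte markers was between 5.72 and 8.37 in MEG, 5.97 and 6.53 in ERY, and 6.87 and 9.19 in HSPC. The MEG array with the highest of these medians was replicate 3. A change in the cells present and a change in RNA per cell cannot be told apart in such samples.

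The HSPC arrays lay apart from one another, and this bears on every comparison with HSPC. Over the members, the root mean square difference was 0.513 between replicates 1 and 2 and 0.609 between 2 and 3. It was 0.316 between 3 and 4 and 1.29 between 1 and 4. For 44 of the 87 members (50.6%) replicates 1 and 2 were both above replicates 3 and 4, against 26.3% of all genes, and for 27 (31%) replicates 3 and 4 were both above 1 and 2, against 54.4% of all genes. The distance between the highest and the lowest HSPC array exceeded 1 for 34 members and 2 for 15, and was widest for *Hsp90b1*, at 3.40. In MEG it exceeded 1 for 20 members and 2 for 4, and in ERY it exceeded 1 for 6 members. Its median over the members was 0.73 in HSPC, 0.71 in MEG and 0.37 in ERY. Among the MEG arrays, replicates 2 and 3 lay closest together, with a root mean square difference over the members of 0.133 against 0.590 to 0.778 for the other pairs. Replicate 1 was the lowest MEG array for 31 members (35.6%, against 22.8% of all genes).

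The question for each lineage was which chaperones change as progenitors mature. In MEG against HSPC, 11 members were higher (12.6%, with 8.77% of all genes called higher) and 7 were lower (8.05%, with 11.4% of all genes called lower). In ERY against HSPC, 7 members were higher (8.05%, against 8.35% of all genes) and 3 were lower (3.45%, against 12.3%). In MEG against ERY, 3 members were higher (3.45%, against 8.75%) and 8 were lower (9.2%, against 7.77%). Among the 12873 genes above the background limit in at least 1 population, the same calls took in 12.9% (higher) and 17.5% (lower) in MEG against HSPC, 12.7% and 18.9% in ERY against HSPC, and 13.4% and 11.8% in MEG against ERY. The share of members called higher was near these backgrounds in MEG against HSPC. The shares called lower in MEG and in ERY against HSPC, and higher in MEG against ERY, were below them. The members' shares are over all 87, of which 10 did not exceed the limit. Without regard to the size of the change, every MEG array lay above every HSPC array for 7 members (12% of all genes) and below for 14 (17.4%). Every ERY array lay above the HSPC arrays for 19 (16.3%) and below for 10 (20.9%), and every MEG array above the ERY arrays for 12 (15.2%) and below for 20 (17.7%). The median change over the 87 members was -0.06 in MEG and 0.09 in ERY relative to HSPC, and -0.12 in MEG relative to ERY, against -0.02, 0.03 and -0.02 over all genes. The median in MEG relative to HSPC turned positive when arrays were centred on ribosomal protein genes (0.38) or on genes above the background limit (0.04). In all, 25 members were called in at least 1 comparison and 62 in none. Of the members called in a comparison with HSPC, 3 were higher in both MEG and ERY, 8 were higher in MEG alone, 3 were higher in ERY alone, 5 were lower in MEG alone, 2 were lower in ERY alone, 1 was lower in both and 1 had calls of opposite direction. When the difference was tested against 2-fold itself (treat in limma), the calls left were those of *Dnajb4* and *Hspbp1* in MEG, *Dnaja4*, *Dnajb2*, *Dnajb3*, *Dnajb4* and *Hspa4l* in ERY, and *Dnaja4*, *Dnajb3* and *Hspbap1* between the lineages. Both comparisons use the same HSPC arrays.

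Most chaperones assigned here to the ER stood highest in MEG. Of 10 members assigned to this compartment, 7 were higher in MEG than in HSPC (8.77% of all genes), with a median change of 1.57. The other 3 had positive differences as well. In ERY against HSPC all 10 differences were positive, with a median of 0.58, but limma called none (3 had an unadjusted p below 0.05). Over all genes, 8.35% were called higher in ERY than in HSPC. Directly between the lineages 3 were higher in MEG (8.75% of all genes), with a median difference of 0.97. For 7 of the 10 every MEG array lay above every ERY array, an arrangement seen in 15.2% of all genes. For *Dnajb12* every MEG array lay below every ERY array, as for 17.7% of all genes. The differences and the overlap of arrays between the lineages involve no HSPC array. The 3 calls, however, rest on a variance estimated from all 12 arrays, and 5 were called without HSPC replicate 1. Some class C J proteins that may also act in the ER were grouped apart, and they did not all follow. *Dnajc16* averaged 8.16 in MEG, 8.63 in ERY and 8.68 in HSPC. In the same order *Dnajc18* averaged 6.63, 6.38 and 6.65, and *Dnajc14* averaged 9.29, 9.35 and 8.68.

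**Figure D1:**
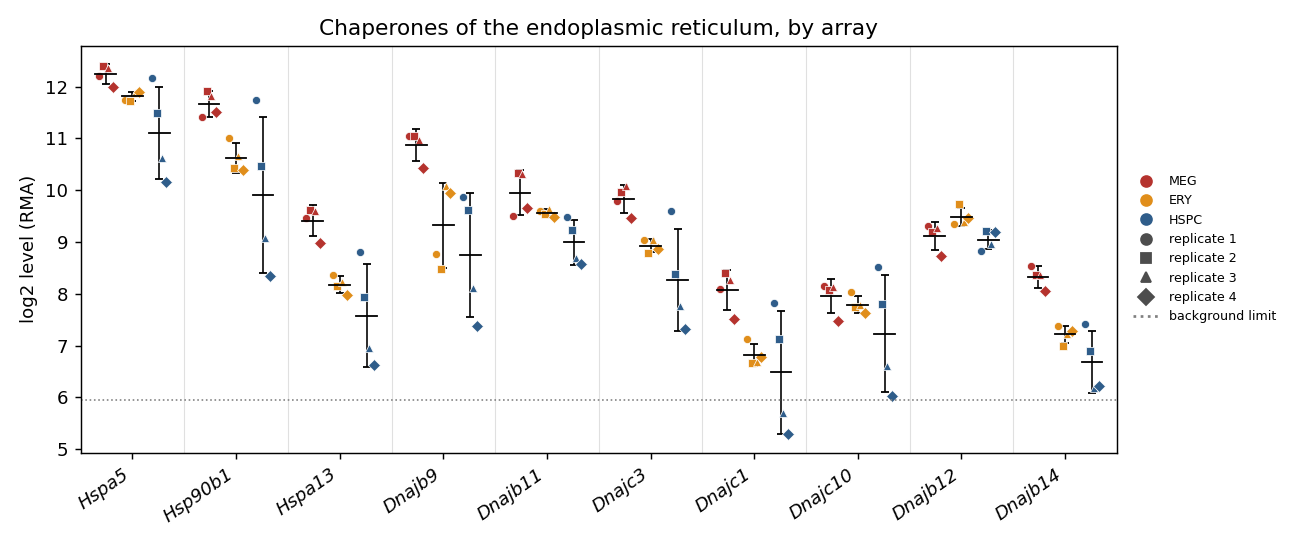
Log2 level of the 10 ER chaperone genes on each array, with MEG in red, ERY in orange and HSPC in blue, a marker shape for each replicate number, the mean and SD (n = 4) in black, and the background limit of 5.95 dotted. MEG arrays lie above the ERY arrays without overlap for 7 genes and below them for *Dnajb12*. HSPC replicates 1 and 2 lie above replicates 3 and 4 for all genes shown but *Dnajb12*.

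*Hspa5* encodes BiP, the Hsp70 protein of the ER lumen and the sensor that holds the unfolded protein response inactive. Its levels were 12.21, 12.41, 12.36 and 11.99 in the MEG arrays, 11.74, 11.72, 11.88 and 11.90 in the ERY arrays, and 12.16, 11.49, 10.63 and 10.17 in the HSPC arrays. The MEG arrays were all above the ERY arrays, whereas HSPC replicate 1 lay within the MEG range. The difference between MEG and HSPC was 1.13 (SE 0.33, adjusted p = 0.019 by limma). *Hsp90b1*, the Hsp90 protein of the ER that folds integrins and Toll-like receptors, measured 11.41, 11.92, 11.83 and 11.51 in MEG, 11.02, 10.42, 10.66 and 10.39 in ERY, and 11.74, 10.47, 9.07 and 8.34 in HSPC. Its difference of 1.76 between MEG and HSPC (SE 0.55, adjusted p = 0.0259) again rests on HSPC arrays that overlap with MEG at replicate 1. Against ERY it was 1.04 (SE 0.55, adjusted p = 0.215), with no overlap between the arrays.

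*Hspa13*, an Hsp70-like protein of the ER membrane fraction, reached 9.46, 9.62, 9.60 and 8.98 in MEG, against 8.35, 8.15, 8.22 and 7.97 in ERY and 8.80, 7.94, 6.95 and 6.62 in HSPC. All 4 MEG arrays were above all others. It was higher in MEG than in HSPC by 1.84 (SE 0.38, adjusted p = 0.00223) and than in ERY by 1.24 (SE 0.38, adjusted p = 0.0272). *Dnajb14*, a J protein of the ER membrane, measured 8.53, 8.36, 8.36 and 8.04 in MEG, 7.38, 6.99, 7.22 and 7.27 in ERY, and 7.42, 6.90, 6.18 and 6.21 in HSPC. The MEG arrays did not overlap with either other population, and the differences were 1.64 against HSPC (SE 0.25, adjusted p = 0.000257) and 1.11 against ERY (SE 0.25, adjusted p = 0.00426), the second of which fell below 2-fold (0.97) with centring on genes above the background limit.

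*Dnajb9*, also called ERdj4, brings misfolded proteins to BiP. It measured 11.04, 11.05, 10.98 and 10.42 in MEG, 8.77, 8.48, 10.09 and 9.94 in ERY, and 9.86, 9.62, 8.11 and 7.37 in HSPC. MEG lay above all other arrays, by 2.13 on average against HSPC (SE 0.52, adjusted p = 0.00706) and by 1.55 against ERY (SE 0.52, adjusted p = 0.0456), while ERY split into a low and a high pair. *Dnajc3*, the P58IPK inhibitor of the eIF2alpha kinase PERK, averaged 9.83 ± 0.27 in MEG, 8.93 ± 0.13 in ERY and 8.26 ± 0.99 in HSPC (SD, n = 4 each), 1.56 higher in MEG than in HSPC (adjusted p = 0.00582). *Dnajc1*, an ER membrane J protein that also reaches ribosomes, averaged 8.07 ± 0.39 in MEG, 6.81 ± 0.22 in ERY and 6.48 ± 1.19 in HSPC (SD, n = 4 each), 1.58 higher in MEG than in HSPC (adjusted p = 0.0165). The 3 ER members without a call in MEG were *Dnajb11*, *Dnajc10* and *Dnajb12*, with differences of 0.96, 0.72 and 0.07 from HSPC.

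The number of calls among ER members followed the HSPC arrays used, as did that over all genes. Over all genes, 1748 were called higher in MEG and 1664 in ERY with all HSPC arrays. These counts were 2525 and 2448 with HSPC replicates 3 and 4 alone, and 1077 and 1169 with replicates 1 and 2 alone. With HSPC replicates 3 and 4 alone, 9 of the 10 ER members were higher in MEG than in HSPC and 8 in ERY. With replicates 1 and 2 alone, 2 were higher in MEG (*Hspa13* and *Dnajb14*) and 0 in ERY. The positive differences between ERY and HSPC turned negative in this last setting for 7 of the 10, *Dnajc1* (-0.66), *Hsp90b1* (-0.48), *Dnajb9* (-0.42), *Dnajc10* (-0.36), *Hspa13* (-0.19), *Dnajc3* (-0.05) and *Hspa5* (-0.01), and that between MEG and HSPC for *Dnajc10* (-0.20). Without HSPC replicate 1, 9 were higher in MEG (2203 of all genes) and 4 in ERY (2077 of all genes). Without replicate 3, 4 were higher in MEG (1428 of all genes), and without replicate 4, 5 (1447 of all genes). *Hspa5* lost its call without HSPC replicate 3 (0.97, adjusted p = 0.063) and without replicate 4 (0.82). *Hsp90b1* lost its call without HSPC replicate 3 (adjusted p = 0.0818) or 4 (adjusted p = 0.0673), and without MEG replicate 2 (adjusted p = 0.0601) or 3 (adjusted p = 0.0522), and *Dnajc1* without HSPC replicate 3 (adjusted p = 0.0563). Between MEG and ERY, *Dnajb9* lost its call without any MEG array or without ERY replicate 1 or 2 (adjusted p up to 0.140), and *Hspa13* without MEG replicate 1, 2 or 3 or ERY replicate 2, 3 or 4 (adjusted p up to 0.0725). A fit of the 8 MEG and HSPC arrays alone called 4 of the 10 ER members higher in MEG (1453 of all genes), without *Hsp90b1* (adjusted p = 0.0707), *Hspa5* (adjusted p = 0.0607) and *Dnajc1* (adjusted p = 0.0523). A fit of the 8 MEG and ERY arrays alone called 5 higher in MEG (1787 of all genes), *Dnajc1* (adjusted p = 0.00103) and *Hsp90b1* (adjusted p = 0.00154) among them.

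Other genes of the ER mostly went with these members between MEG and ERY, but not against HSPC. Of 21 listed genes of ER folding and translocation, 19 had positive differences between MEG and ERY, with a median of 0.76. Against HSPC, 7 were positive in MEG (median -0.16) and 5 in ERY (median -0.70). In MEG against HSPC, 3 were called higher and 1 lower (8.77% and 11.4% of all genes). In ERY against HSPC 1 was higher and 7 were lower (8.35% and 12.3%). In MEG against ERY 3 were higher and 0 lower (8.75% and 7.77%). Those higher in MEG than in HSPC were *Ero1a*, the oxidase that renews disulfide bonds (1.89), and *Sec63* (1.87) and *Sec62* (1.71) of the translocation channel, whereas *Txndc5*, a disulfide isomerase, was lower (-1.16). Those lower in ERY than in HSPC included *Txndc5* (-1.76), *Pdia4* (-1.46) and *Hyou1*, a partner of BiP (-1.23). *Hspa5*, by contrast, differed by 0.70 between ERY and HSPC, with no call. Of 16 listed genes of the unfolded protein response, 4 were higher in MEG than in HSPC: *Atf6*, its membrane-bound transcription factor (2.46), *Edem1* (1.93) and *Derl1* (1.25), which serve degradation of ER proteins, and *Ddit3* (1.65). In ERY 4 were higher, among them *Eif2ak1*, the heme-regulated eIF2alpha kinase (3.19), and *Ppp1r15a*, which reverses its action (2.78), and 1 was lower. *Edem1* differed most between the lineages, at 11.79 ± 0.25 in MEG and 8.85 ± 0.11 in ERY (SD, n = 4 each; adjusted p = 5.88e-08), and *Xbp1* was 1.16 higher in MEG (adjusted p = 2.93e-05).

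Among the cytosolic J proteins were the largest changes of the set. *Dnaja4*, a class A J protein whose substrates in blood cells are not established, measured 6.76, 6.59, 6.68 and 6.38 in MEG, 10.56, 10.67, 10.47 and 10.54 in ERY, and 6.43, 6.52, 6.89 and 6.86 in HSPC. The ERY arrays stood alone, with MEG and HSPC overlapping at a level slightly above the background limit. The difference between ERY and HSPC was 3.89, or 14.8-fold (SE 0.14, adjusted p = 1.73e-09), and that between MEG and ERY was -3.96 (SE 0.14, adjusted p = 6.69e-10). For comparison *Alas2*, the erythroid enzyme of heme synthesis, was at 12.83 ± 0.05 in ERY and 6.43 ± 0.18 in HSPC (SD, n = 4 each). Between MEG and HSPC *Dnaja4* differed by -0.07 (95% confidence interval from -0.37 to 0.23). Of the 14 hepatocyte markers, 13 were higher in ERY than in HSPC, 14 were lower in MEG than in ERY and 12 lower in MEG than in HSPC. Of the 12 macrophage markers, 7 were higher in ERY than in HSPC, 7 lower in MEG than in ERY and 0 called between MEG and HSPC (median 0.01). Their part in the values of *Dnaja4* was not tested.

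*Dnajb3* was the member with calls of opposite direction in the 2 comparisons with HSPC. It measured 4.36, 4.28, 4.13 and 4.53 in MEG, 8.49, 8.80, 8.22 and 8.25 in ERY, and 5.14, 5.52, 5.97 and 5.83 in HSPC. The 3 populations did not overlap, but all MEG arrays and 3 of the 4 HSPC arrays were below the background limit. Relative to ERY it was at least 5.61-fold lower in MEG (adjusted p = 7.17e-09), the bound being the mean of ERY over the background limit. The mean of ERY was above that of HSPC by 2.83 (SE 0.19, adjusted p = 3.39e-07), with 1 HSPC array above the limit. Between MEG and HSPC limma called it lower (adjusted p = 0.000259), but with both means below the limit no fold is given, and the call was lost with ribosomal centring. This J protein is known from testis, and its gene, of 1017 bases, lies wholly within the spans of Ugt1a genes, a family expressed in hepatocytes. The hepatocyte markers counted above were called in the same directions as *Dnajb3*, and their part in its values was not tested.

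**Figure D2:**
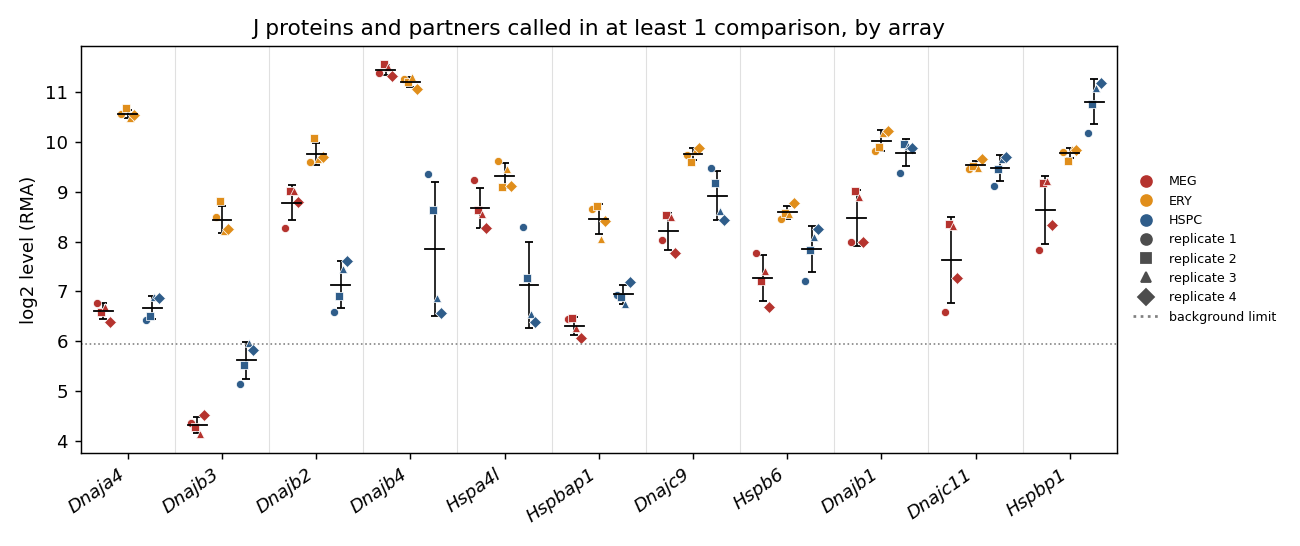
Log2 level of 11 members called in at least 1 comparison, on each array, with MEG in red, ERY in orange and HSPC in blue, a marker shape for each replicate number, the mean and SD (n = 4) in black, and the background limit of 5.95 dotted. *Dnaja4*, *Dnajb3* and *Hspbap1* are high in ERY alone, *Dnajb2* and *Dnajb4* are above HSPC in both lineages, *Hspa4l* has 1 MEG array (8.27) below the highest HSPC array (8.29), and *Hspbp1* is highest in HSPC.

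Both lineages shared 3 increases. *Dnajb4*, an inducible cytosolic J protein, measured 11.38, 11.55, 11.51 and 11.33 in MEG, 11.25, 11.20, 11.30 and 11.06 in ERY, and 9.35, 8.63, 6.87 and 6.57 in HSPC. Every array of either lineage exceeded every HSPC array, by 3.59 on average in MEG (SE 0.48, adjusted p = 0.000123) and 3.35 in ERY (SE 0.48, adjusted p = 0.000162). The span of *Dnajb4* overlaps that of *Fubp1* by 11 bases. *Dnajb2*, which carries ubiquitin-interacting motifs and sends clients to the proteasome, measured 8.28, 9.01, 9.02 and 8.80 in MEG, 9.60, 10.08, 9.65 and 9.69 in ERY, and 6.58, 6.92, 7.44 and 7.60 in HSPC. Here replicates 3 and 4 were the higher HSPC arrays, opposite to *Dnajb4*, and the differences were 1.64 in MEG (SE 0.24, adjusted p = 0.000204) and 2.62 in ERY (SE 0.24, adjusted p = 3.63e-06). *Hspa4l*, an Hsp110 protein that acts as an exchange factor for Hsp70, averaged 8.68 ± 0.41 in MEG, 9.32 ± 0.25 in ERY and 7.13 ± 0.87 in HSPC (SD, n = 4 each), with adjusted p = 0.00493 in MEG and 0.000423 in ERY. Against HSPC replicates 1 and 2 alone, its difference in MEG was 0.89 (adjusted p = 0.0669).

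In ERY alone, *Hspbap1*, which binds the small heat shock protein Hspb1, was higher: it measured 6.45, 6.46, 6.26 and 6.06 in MEG, 8.65, 8.72, 8.06 and 8.41 in ERY, and 6.93, 6.88, 6.75 and 7.19 in HSPC. The ERY arrays exceeded all others, by 1.52 on average against HSPC (adjusted p = 1.85e-05), and the difference between MEG and ERY was -2.15 (adjusted p = 6.96e-07). *Dnajc8*, a J protein of the spliceosome, averaged 8.15 ± 0.28 in MEG, 8.74 ± 0.14 in ERY and 7.53 ± 0.85 in HSPC (SD, n = 4 each). Its call in ERY (1.22, adjusted p = 0.0118) was lost without HSPC replicate 4 (0.90, adjusted p = 0.0266). *Dnajc6*, auxilin, which uncoats clathrin vesicles, was lower in ERY, at 6.14 ± 0.23 in MEG, 5.87 ± 0.10 in ERY and 7.08 ± 0.16 in HSPC (SD, n = 4 each; adjusted p = 2.78e-05 for ERY against HSPC). Of its ERY arrays 3 were below the background limit, and the call was lost with ribosomal centring (-0.86) and with centring on genes above the limit (-0.98). In MEG alone, *Dnajc21*, a J protein of ribosome assembly, was called higher (1.38, adjusted p = 0.0323), but its arrays overlapped with those of HSPC. It lost the call without any of MEG replicates 2, 3 and 4 or HSPC replicates 3 and 4 (adjusted p up to 0.0981).

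Several members were lower in MEG than in ERY. Of the marker lists, 14 of 14 hepatocyte markers and 7 of 12 macrophage markers were lower in MEG as well, and their part in these results was not tested. *Dnajb1*, Hsp40, the inducible partner of cytosolic Hsp70, measured 7.98, 9.01, 8.90 and 8.0 in MEG, 9.81, 9.89, 10.18 and 10.22 in ERY, and 9.38, 9.95, 9.92 and 9.88 in HSPC. MEG lay below both other populations without overlap, with mean differences of -1.55 from ERY (SE 0.25, adjusted p = 0.000366) and -1.31 from HSPC (SE 0.25, adjusted p = 0.00126). The second fell below 2-fold with ribosomal centring (-0.87) and with array weights (-0.95). *Dnajc9*, a J protein that chaperones histones, averaged 8.21 ± 0.37 in MEG, 9.76 ± 0.12 in ERY and 8.92 ± 0.49 in HSPC (SD, n = 4 each), a difference of -1.55 between MEG and ERY (adjusted p = 0.000275). Among 8 small heat shock protein genes, only *Hspb6* was called, and only between the lineages, at 7.27 ± 0.45 in MEG and 8.59 ± 0.13 in ERY (SD, n = 4 each; adjusted p = 0.00131). Over all genes, 7.77% were called lower in MEG than in ERY. *Hspb1*, Hsp25 of the mouse, was near the background limit in each population, at 6.41 ± 0.42 in MEG, 6.31 ± 0.18 in ERY and 6.10 ± 0.33 in HSPC (SD, n = 4 each).

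*Hspbp1*, an exchange factor that slows the Hsp70 cycle, was the member lower in both lineages. It measured 7.83, 9.18, 9.21 and 8.32 in MEG, 9.80, 9.62, 9.85 and 9.84 in ERY, and 10.18, 10.77, 11.09 and 11.18 in HSPC. The 3 populations did not overlap, with HSPC highest and MEG lowest. The differences were -2.17 between MEG and HSPC (SE 0.30, adjusted p = 0.000155), -1.03 between ERY and HSPC (SE 0.30, adjusted p = 0.0188) and -1.14 between MEG and ERY (SE 0.30, adjusted p = 0.0128). The call in ERY was lost when an array was left out, at adjusted p = 0.0577 for HSPC replicate 3, 0.0566 for HSPC replicate 4 and 0.0515 for ERY replicate 2, and that between MEG and ERY without MEG replicate 1 (a difference of -0.87) and with array weights (-0.67). In ERY the call was also lost with ribosomal centring (-0.67) and with centring on genes above the limit (-0.79). By limma none of the 6 Bag genes was called in any comparison, although 3 in MEG against HSPC, 1 in ERY against HSPC and 2 in MEG against ERY had an unadjusted p below 0.05. *Bag2*, which acts with the ubiquitin ligase Chip, differed in MEG by -0.93 from ERY (adjusted p = 0.0037) and by -0.88 from HSPC (adjusted p = 0.0049), short of the 2-fold threshold.

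The cytosolic Hsp70 and Hsp110 group, 10 members, had 1 call up (*Hspa4l*) and 2 down (*Hspa1a* and *Hspa12b*) in MEG against HSPC, 1 call in ERY (*Hspa4l*) and 0 between the lineages by limma, where 3 had an unadjusted p below 0.05. Over all genes, calls up and down took in 8.77% and 11.4% in MEG, 8.35% and 12.3% in ERY, and 8.75% and 7.77% between the lineages. *Hspa8*, the constitutive Hsc70, measured 12.09, 12.86, 12.86 and 12.75 in MEG, 12.75, 12.33, 12.74 and 12.82 in ERY, and 13.04, 12.93, 12.87 and 12.69 in HSPC. The populations overlapped, and the difference from HSPC was -0.24 in MEG (95% confidence interval from -0.65 to 0.16) and -0.22 in ERY (from -0.62 to 0.18). *Hspa1a*, the heat-inducible Hsp70, measured 7.30, 7.31, 7.34 and 9.83 in MEG, 8.70, 8.65, 10.71 and 10.80 in ERY, and 10.69, 10.31, 10.22 and 9.09 in HSPC. Of the MEG arrays 3 lay far below HSPC and the other within its range. Its near-identical copy *Hspa1b* may bind the same probes, so the values cannot be assigned to 1 of these genes with certainty. The difference of -2.13 between MEG and HSPC (SE 0.66, adjusted p = 0.0248) lost its call without MEG replicate 1 (adjusted p = 0.0622), 2 (adjusted p = 0.066) or 3 (adjusted p = 0.06) and without HSPC replicate 2 (adjusted p = 0.0583) or 3 (adjusted p = 0.058).

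*Hspa12b*, an Hsp70 relative known from endothelium, was 5.92, 5.81, 5.61 and 5.64 in MEG, below the background limit, against 6.37, 6.89, 6.66 and 6.83 in ERY and 6.75, 7.31, 7.71 and 8.10 in HSPC. With every MEG array below the limit, it was at least 2.86-fold lower in MEG than in HSPC (adjusted p = 0.000163). *Hsp90aa1*, the inducible cytosolic Hsp90, measured 10.85, 11.88, 11.84 and 11.76 in MEG, 11.79, 11.27, 12.05 and 11.76 in ERY, and 12.28, 11.39, 10.23 and 9.55 in HSPC. The HSPC arrays alone spanned both lineages, and no difference was called (0.72 in MEG, 95% confidence interval from -0.32 to 1.76; 0.86 in ERY, from -0.18 to 1.90). Against HSPC replicates 1 and 2 alone these differences were -0.25 and -0.11. *Hsph1*, Hsp110, and *Hspa4* likewise overlapped in all 3 populations, with adjusted p values of at least 0.368. *Hspa2*, best known from testis, averaged 7.13 ± 0.22 in MEG, 6.41 ± 0.23 in ERY and 6.94 ± 0.16 in HSPC (SD, n = 4 each), and its difference of 0.72 between the lineages had an adjusted p of 0.0034 but was below 2-fold.

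**Figure D3:**
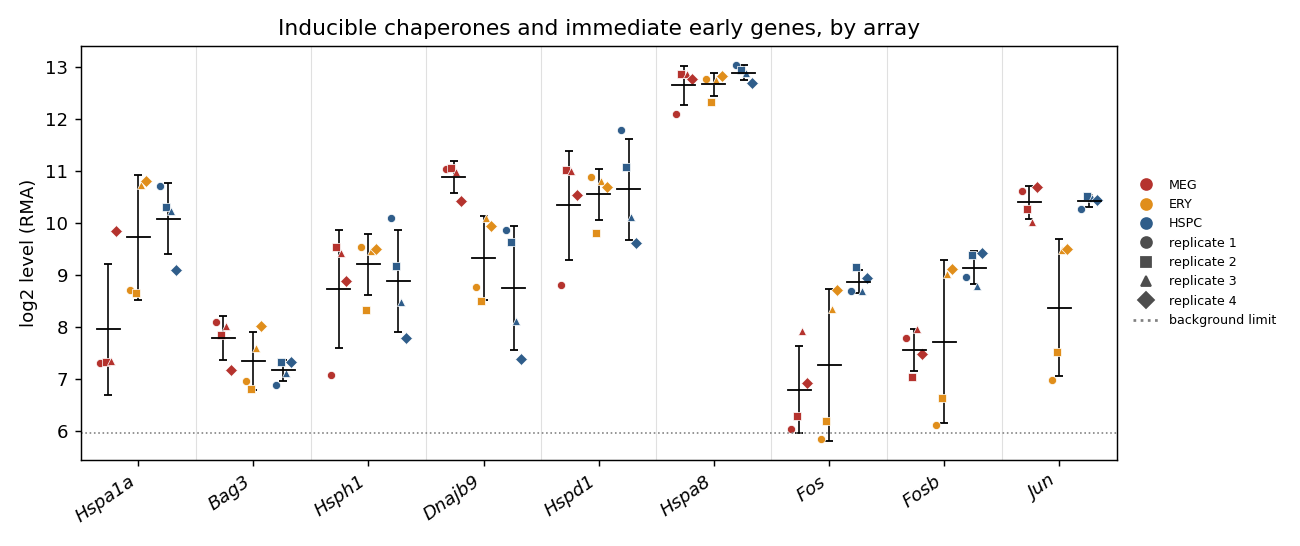
Log2 level of 6 inducible or abundant chaperone genes and of the immediate early genes *Fos*, *Fosb* and *Jun* on each array, with MEG in red, ERY in orange and HSPC in blue, a marker shape for each replicate number, the mean and SD (n = 4) in black, and the background limit of 5.95 dotted. In ERY, replicates 3 and 4 lie above 1 and 2 for *Hspa1a*, *Bag3*, *Dnajb9* and the 3 immediate early genes.

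The chaperonin CCT folds actin and tubulin with a ring of different subunits, 7 of which were measured here as members, all of them abundant. The other 2 of the 9 CCT members, *Cct6b* and *Cct8l1*, were below the background limit. In MEG against HSPC 1 of the 9 was lower, *Cct3* (11.4% of all genes). In ERY limma called none, with 3 at an unadjusted p below 0.05 (8.35% of all genes were called higher and 12.3% lower). The median difference from HSPC over the 7 ring subunits was -0.49 in MEG and -0.29 in ERY, and with ribosomal centring it was -0.05 in MEG and turned positive in ERY (0.07). Over all 9 it was -0.20 and -0.26, both turning positive (0.24 and 0.10). *Cct3* measured 8.74, 10.80, 10.78 and 10.18 in MEG, 10.47, 10.27, 10.50 and 10.53 in ERY, and 11.56, 11.38, 11.28 and 11.15 in HSPC. HSPC lay above both lineages without overlap, but the size of the MEG difference (-1.22, SE 0.36, adjusted p = 0.0189) was set by replicate 1, without which it was -0.76 (adjusted p = 0.00574). The call was also lost in the fit of the 8 arrays compared (adjusted p = 0.0598), with either pair of HSPC arrays alone (adjusted p up to 0.0821), with ribosomal centring (-0.78) and with array weights (-0.54). *Cct5* was also above both lineages in all HSPC arrays, with differences of -0.92 in MEG (adjusted p = 0.0042) and -0.61 in ERY (adjusted p = 0.038), less than 2-fold. *Cct2*, *Cct4*, *Cct6a* and *Cct8* overlapped between all populations, with adjusted p of at least 0.269. *Tcp1*, the ring's remaining subunit, differed by -0.40 in MEG and 0.14 in ERY from HSPC, with no call. Of 9 listed genes for *Tcp1*, prefoldin and its helpers, which hand chains to CCT, 2 were higher and 1 was lower in MEG (8.77% and 11.4% of all genes). In ERY 1 was higher and 1 was lower (8.35% and 12.3%), and between MEG and ERY 1 was higher and 1 was lower (8.75% and 7.77%).

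**Figure D4:**
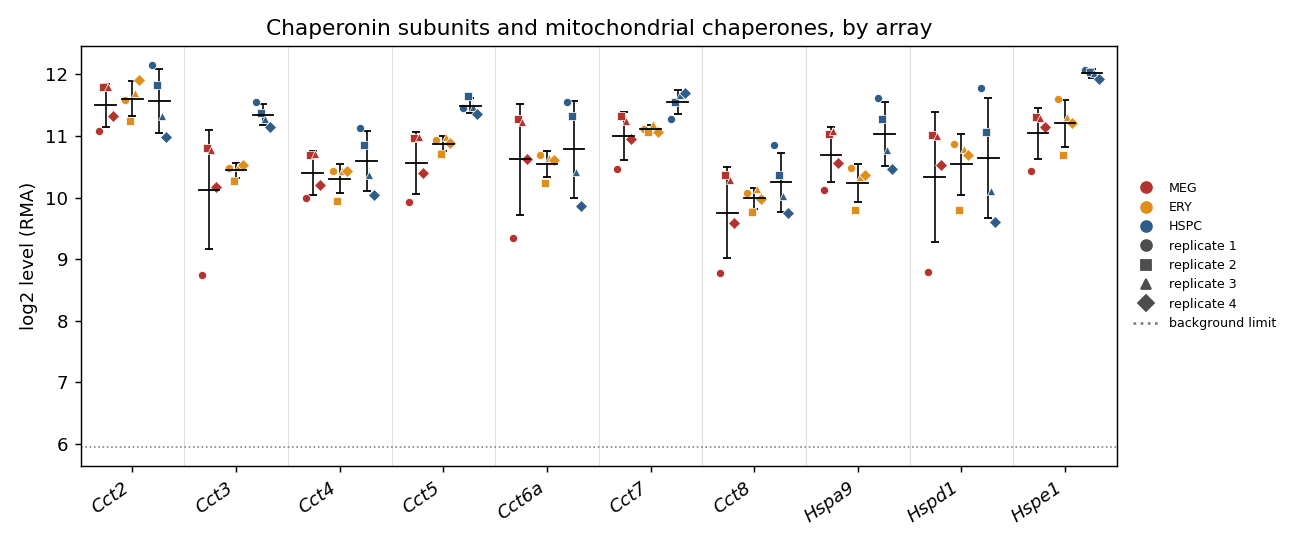
Log2 level of the 7 CCT subunits and of the mitochondrial chaperones *Hspa9*, *Hspd1* and *Hspe1* on each array, with MEG in red, ERY in orange and HSPC in blue, a marker shape for each replicate number, the mean and SD (n = 4) in black, and the background limit of 5.95 dotted. MEG replicate 1 is the lowest MEG array for every gene shown, and *Cct3*, *Cct5* and *Hspe1* are highest in HSPC without overlap.

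Of 8 mitochondrial members, 1 was lower in MEG than in HSPC, 1 was lower in ERY than in HSPC and 1 was lower in MEG than in ERY (11.4%, 12.3% and 7.77% of all genes). The median difference from HSPC was -0.75 in MEG and -0.58 in ERY, or -0.31 and -0.22 with ribosomal centring. *Dnajc11*, a J protein of the complex that shapes mitochondrial cristae, measured 6.59, 8.36, 8.30 and 7.26 in MEG, 9.46, 9.52, 9.49 and 9.65 in ERY, and 9.12, 9.45, 9.66 and 9.69 in HSPC. MEG lay below the other populations, with mean differences of -1.90 from ERY (SE 0.33, adjusted p = 0.000689) and -1.85 from HSPC (SE 0.33, adjusted p = 0.00085). *Dnajc15*, a J protein of the inner membrane import motor, measured 7.99, 9.40, 9.43 and 8.61 in MEG, 8.27, 8.19, 8.50 and 8.41 in ERY, and 9.29, 9.69, 9.88 and 9.76 in HSPC. ERY were below HSPC without overlap, with a difference of -1.31 (SE 0.28, adjusted p = 0.00268) that fell below 2-fold with ribosomal centring (-0.95), whereas MEG spanned the gap.

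*Hspe1*, the lid of the mitochondrial chaperonin, measured 10.43, 11.31, 11.28 and 11.15 in MEG, 11.60, 10.69, 11.31 and 11.21 in ERY, and 12.08, 12.04, 12.02 and 11.92 in HSPC. Both lineages were below HSPC in every array, with differences of -0.97 in MEG (adjusted p = 0.0041) and -0.81 in ERY (adjusted p = 0.0117), short of the 2-fold threshold. In MEG limma called it lower when the probe sets of the gene were averaged (-1.13, adjusted p = 0.00114). The call was also made without HSPC replicate 4 or MEG replicate 2, 3 or 4 (-1.005 to -1.061), and against HSPC replicates 1 and 2 alone (-1.018). *Hspd1*, the barrel, which shares its promoter region with *Hspe1*, averaged 10.33 ± 1.05 in MEG, 10.54 ± 0.50 in ERY and 10.64 ± 0.98 in HSPC (SD, n = 4 each), with overlap throughout. The HSPC arrays of *Hspd1* ran between 9.60 and 11.78 where those of *Hspe1* differed by little. Each of these 2 genes had 2 probe sets and was read on that with the higher mean. Whether the contrast holds on the other probe sets was not tested. *Hspa9*, mortalin, averaged 10.70 ± 0.44 in MEG, 10.24 ± 0.31 in ERY and 11.03 ± 0.52 in HSPC (SD, n = 4 each), and its difference of -0.79 in ERY had an adjusted p of 0.0435. Among 13 other listed genes of mitochondrial folding and proteolysis, 2 were called higher and 4 lower in MEG against HSPC (8.77% and 11.4% of all genes). In ERY against HSPC 3 were higher and 2 lower (8.35% and 12.3%), and in MEG against ERY 1 was lower (7.77%). *Trap1*, the mitochondrial Hsp90, was lower in MEG than in HSPC (-1.66, adjusted p = 4.49e-05).

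Of 21 listed cochaperones of Hsp90 and Hsp70 outside the set, most were below HSPC, with 6 positive differences in MEG (up to 1.04) and 6 in ERY (up to 0.72). In MEG against HSPC, 0 were called higher and 7 lower (8.77% and 11.4% of all genes). In ERY against HSPC 0 were higher and 6 lower (8.35% and 12.3%). Among genes above the background limit, 17.5% were lower in MEG and 18.9% in ERY. In MEG against ERY 1 was higher and 0 were lower (8.75% and 7.77% of all genes). Their median difference from HSPC was -0.49 in MEG and -0.55 in ERY. Ribosomal centring left these medians at -0.05 and -0.19. *Fkbp4*, an immunophilin of steroid receptor complexes, was lower in MEG (-1.71) and in ERY (-1.62), *Cdc37*, which brings kinases to Hsp90, in MEG (-1.36) and in ERY (-1.11), and *Ppp5c*, a phosphatase bound to Hsp90, in MEG (-1.66) and in ERY (-1.29). *Tomm34* fell by 2.14 in ERY and *Pih1d1* fell by 2.04 in MEG. Of the heat shock factors, *Hsf2* differed by -0.07 in MEG and -0.21 in ERY from HSPC with no call, and *Hsf1* was not analysed here. *Hsbp1*, which binds heat shock factor trimers, was lower in ERY than in HSPC (-1.64) and higher in MEG than in ERY (1.18). Among 9 chaperones with dedicated substrates, *Clu*, clusterin, a secreted chaperone also held in platelet granules, was at 11.38 ± 0.15 in MEG, 7.15 ± 0.22 in ERY and 7.53 ± 0.62 in HSPC (SD, n = 4 each; adjusted p = 4.46e-07 for MEG against HSPC), and *Tbce*, a tubulin cofactor, was higher in ERY than in HSPC (1.62). The erythroid chaperone of alpha globin, *Ahsp*, was not analysed here.

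**Figure D5:**
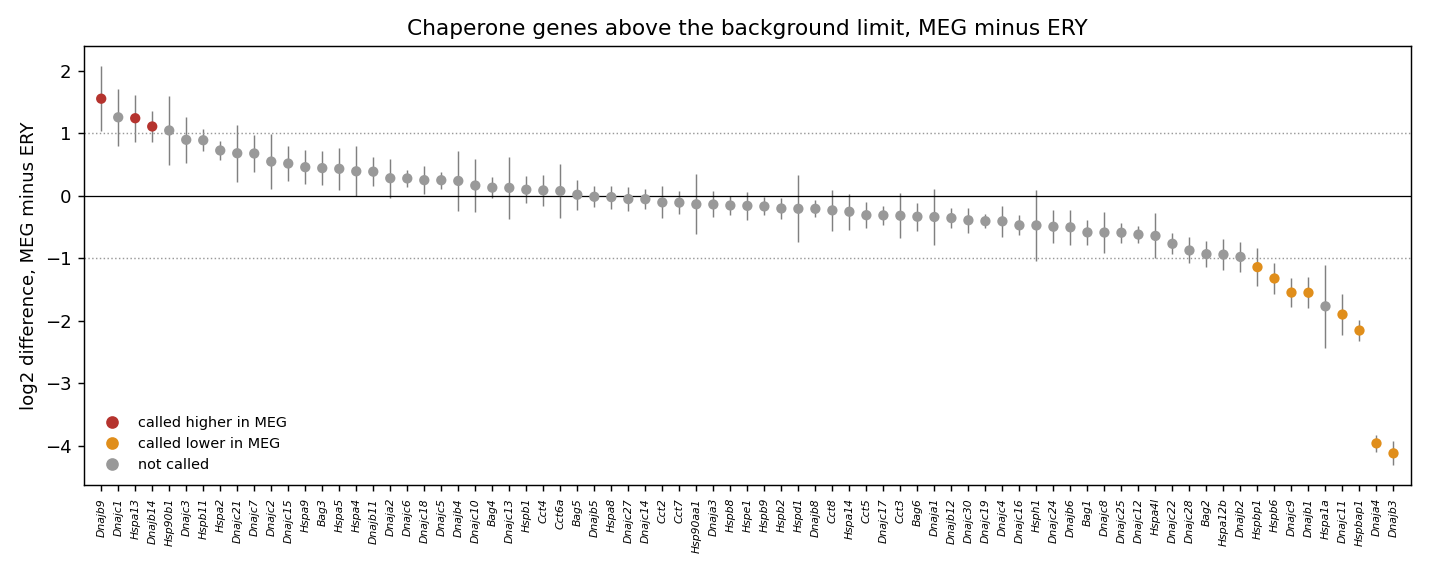
Log2 difference between MEG and ERY for the 77 members above the background limit in at least 1 population, ordered by size, with the limma standard error as bars and dotted lines at 2-fold. The 3 members called higher in MEG are red and the 8 called lower are orange, with *Dnaja4* at -3.96, *Dnajb3*, whose MEG arrays are all below the limit, at -4.12 and all others between -2.15 and 1.55.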

How the data were processed

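The 12 expression arrays (GeneChip Mouse Gene ST) held 4 of MEG, 4 of ERY and 4 of HSPC. The log2 values deposited by the authors are RMA summaries of the probe sets, with version and settings not given in the sources used here. They came with array medians between 5.99 and 6.25. No raw intensities were used, so the number of arrays limits the precision. Of 34760 probe sets, 21640 carry 1 gene symbol in the platform annotation, 1321 carry several and 11799 are not listed there; the first kind gave 19937 genes, each represented by the probe set with the highest mean. This choice applied to 7 of the 87 members: *Dnaja1*, *Dnajc13*, *Hsp90aa1*, *Hspa8*, *Hspb1*, *Hspd1* and *Hspe1*. All 87 members matched RefSeq.

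Fits used limma 3.58.1 (R 4.3.3) and covered all 19937 genes and 12 arrays, with 1 mean per population and calls above 2-fold at an FDR of 5%, the thresholds of the study's methods. The fit was checked on simulated data. Members and lists were chosen with earlier results of these data known. Members named are the core chaperones (the CCT subunits, cytosolic Hsp70, Hsp110 and Hsp90, *Hsp90b1*, *Hspa5*, *Hspa9*, *Hspd1*, *Hspe1*, *Hspb1* and *Dnajb1*), the 6 largest changes each way in a comparison among called members without overlap, and those called in opposite directions; other members were named after their values were seen. From the other lists, *Hsf2*, *Tcp1* and the 3 largest changes of a list in a comparison were to be named, and further listed genes were named after their values were seen. Of 98 listed genes of other proteostasis functions, 93 had a probe set of their own.

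The fit was repeated on the 8 arrays compared alone, without each array in turn, on HSPC replicates 1 and 2 or 3 and 4 alone, and with a block for the replicate number. Values were quantile normalized, centred on genes above the limit or on 53 ribosomal protein genes, or averaged over the probe sets of a gene. Adjustment covered only genes above the limit or above the median probe set. The variance was also modelled as trended and robust or with array weights, and the call was made by treat against 2-fold, at 1.5-fold or at 1% FDR. Averaging MEG replicates 2 and 3 as 1 array was added after the values were seen. Python 3.11.15 drew the tables (pandas 2.3.3, numpy 2.4.6) and figures (matplotlib 3.10.9).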

Additional observations from a re-analysis of the deposited data

Results flagged for a closer look

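In 213 groups of 4 arrays, over 71 named genes, 16 groups had an array farther from the other 3 than Dixon's limit, where chance flags about 1 in 20. Replicate 2 was the array apart in ERY for *Cct4* (9.95), *Hspa8* (12.33), *Hsph1* (8.32) and *Hspa4* (9.70), each time as the lowest. MEG replicate 1 was apart for *Hspa8* (12.09) and *Hsp90aa1* (10.85), as the lowest, and for *Cct6b* (5.87), as the highest. MEG replicate 4 was the highest for *Hspa1a* (9.83), where the other 3 lay between 7.30 and 7.34, and the lowest for *Dnajb9* (10.42), *Edem1* (11.43) and *Yme1l1* (10.34). In ERY, replicate 3 was the highest for *Hspb1* (6.59), replicate 4 for *Ppp5c* (9.56) and *Afg3l2* (10.61), and replicate 1 was the lowest for *Sdf2l1* (9.62). HSPC replicate 1 was the lowest for *Dnajb1* (9.38).

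*Dnajb3* was called lower in MEG and higher in ERY relative to HSPC, with every MEG array and 3 of the 4 HSPC arrays below the background limit. The difference between the lineages itself, MEG minus ERY, was -4.12 (adjusted p = 7.17e-09 by limma).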

How the results depend on the processing

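No called difference changed sign under any setting, whereas 176 of 5952 recomputed values of named genes, all of them of differences without a call, did. Members called higher and lower were 11 and 7 in MEG against HSPC, 7 and 3 in ERY against HSPC, and 3 and 8 in MEG against ERY. Without 1 array at a time, these ran over 7 to 16 and 5 to 10, 6 to 16 and 2 to 4, and 1 to 5 and 7 to 10; HSPC replicate 1 gave the 16 in ERY, HSPC replicate 3 the 7 in MEG, and the lowest count of 1 came without MEG replicate 1, 2 or 3 or ERY replicate 2. HSPC replicates 3 and 4 alone gave 20 higher in MEG, 24 in ERY and 5 between the lineages, and replicates 1 and 2 alone gave 4 in MEG (1077 of all genes) and 5 between the lineages. Fitting only the 8 arrays compared gave 7 higher in MEG and 5 between the lineages. Centring on ribosomal protein genes raised the differences by 0.44 in MEG, 0.36 in ERY and 0.08 between them, with 21 higher and 4 lower in MEG and 17 and 0 in ERY, 3473 genes higher and 1149 lower in MEG (1748 and 2270 before) and 2681 and 1535 in ERY (1664 and 2447), and the share of higher calls over all genes was 75.1% in MEG (43.5% before), 63.6% in ERY (40.5%) and 57.8% between them (53%). With this shift the median of the 7 CCT ring subunits turned positive in ERY but not in MEG, that of all 9 CCT members in both, and that of all members in MEG. Centring on genes above the background limit moved the differences by 0.10, 0.24 and -0.14, and quantile normalization by -0.08, -0.11 and 0.02; the limit gave 11 higher and 1 lower in ERY and 13 lower between the lineages, with shares of 51.5%, 55.8% and 45.2%. Array weights, whose estimate did not fully converge, gave 22 higher in MEG (2717 of all genes), 22 in ERY and 8 between them. Treat gave 1 higher and 1 lower in MEG (527 and 492 of all genes), 0 lower in ERY (595 higher and 837 lower), and 0 higher and 3 lower between them (713 and 618). A threshold of 1.5-fold gave 18 lower in MEG (3648 of all genes), 13 and 8 in ERY, and 5 and 16 between them (2325 lower), and an FDR of 1% gave 7 higher in MEG and 1 between them. Averaging MEG replicates 2 and 3, added after the values were seen, gave 1 higher between the lineages. The other settings kept these counts within 1.5 times.

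Replicate numbers did not pair the arrays: 5 of the 12 same-number pairs had deviations that correlated above 0.1, over a range of -0.35 to 0.36. With the replicate block, 10 and 7, 7 and 3, and 3 and 8 members were called, *Dnajc21* in MEG (adjusted p = 0.0529) and *Dnajb9* between the lineages (adjusted p = 0.0786) losing their calls and *Dnajc1* gaining one. Calls lost under none of the 28 settings were those of *Dnajb4* and *Hspbp1* in MEG, *Dnaja4*, *Dnajb2*, *Dnajb3*, *Dnajb4* and *Hspa4l* in ERY, and *Dnaja4*, *Dnajb3* and *Hspbap1* between the lineages.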

Other observations

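The ERY arrays fell into pairs for some chaperones, picked here after their values were seen. *Hspa1a* measured 8.70 and 8.65 in ERY replicates 1 and 2, and 10.71 and 10.80 in replicates 3 and 4. *Dnajb9* measured 8.77 and 8.48 against 10.09 and 9.94, and *Bag3*, the exchange factor that directs clients to autophagy, 6.96 and 6.80 against 7.59 and 8.01. Most of 12 listed immediate early genes, whose transcripts appear within minutes of many stimuli, were split in the same way. *Fos* was at 5.83 and 6.18 against 8.34 and 8.70, *Fosb* at 6.12 and 6.62 against 9.0 and 9.10, and *Jun* at 6.97 and 7.51 against 9.47 and 9.50. The median of the 12 was 6.52 and 7.01 against 8.02 and 8.12. *Ier3* (6.89 and 7.39 against 6.65 and 6.98) and *Btg2* (11.05 and 11.33 against 11.32 and 11.35) were not split. Over all 87 members, ERY replicates 3 and 4 were both above 1 and 2 for 28 (32.2%), against 20.7% of all genes, and both below for 6 (6.9%), against 13.5%. The inducible *Dnajb1* divided in this way by a smaller step, at 9.81 and 9.89 against 10.18 and 10.22. The inducible *Dnajb4*, *Hsp90aa1* and *Hsph1* did not. The labels give no batch for these arrays, and the origin of the split was not tested.

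The spread of the HSPC arrays differed between abundant chaperones. *Hsp90aa1* ran between 9.55 and 12.28 and *Hsp90b1* between 8.34 and 11.74, while *Hspe1* stayed between 11.92 and 12.08 and *Hspa8* between 12.69 and 13.04. Of these, *Hsp90aa1*, *Hspe1* and *Hspa8* had several probe sets, of which that with the highest mean was used.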
